A study of Mus musculus with 15 samples.

Results

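The 10 genes described here encode cytokines and chemokines that keratinocytes are known to secrete: the interleukin-1 (IL-1) family agonists Il1a, Il1b, Il18 and Il33, the IL-1 receptor antagonist Il1rn, the epithelial cytokine Tslp, the growth factor Csf2 and the chemokines Cxcl1, Cxcl2 and Ccl20. They were chosen by name and found by Ensembl identifier, and all 10 were present among the 37583 genes counted. Their RNA was measured in tumour cells of C57BL/6 mouse skin. All animals had been treated for more than 24 weeks with the mutagen DMBA and the tumour promoter TPA, a phorbol ester. KO animals carried K14-cre with SIRT6 flox/flox alleles, so that Cre recombinase from a keratinocyte promoter removes the deacetylase gene Sirt6, and WT animals were wild type. Cells were sorted on the surface proteins CD34, a marker of the hair follicle bulge, and integrin alpha 6 (a6, encoded by Itga6), a laminin receptor of basal keratinocytes. Of the 3 sorted populations, CD34-positive cells were a6-high, CD34-negative cells were split into a6-high and a6-low ones, and each had 2 KO and 3 WT libraries, 15 in all. The labels give no animal age and do not say whether cells of several animals or tumours were pooled.

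Keratinocytes hold IL-1 alpha and IL-33 in the cell and release them when damaged, whereas IL-1 beta and IL-18 are made as inactive precursors that caspase-1 cuts. IL-1 binds the receptor Il1r1, signals through Myd88 and the IRAK kinases to the transcription factor NF-kB, and is blocked by the antagonist that Il1rn encodes. CXCL1 and CXCL2 attract neutrophils through the receptor Cxcr2, CCL20 attracts cells that carry Ccr6, TSLP acts on dendritic and other immune cells, and GM-CSF, the product of Csf2, acts on myeloid cells.

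Promoter sequences are shown for the members whose window upstream of the start holds a match to NF-kB or AP-1, since NF-kB is the factor that IL-1 activates and AP-1 the factor that TPA is known to activate. RefSeq (GRCm38.p6) listed promoters for 9 of the 10 genes, with 250 bases before and 50 bases after each start. The NF-kB consensus was searched on both strands and was held by 4.51% of the 32851 promoters in the same table, and the AP-1 motif TGANTCA, which reads alike on both strands, by 7.81%. The NF-kB consensus was found in Cxcl1, Cxcl2 and Ccl20, and the AP-1 motif in Il1a and in 1 of 3 listed promoters of Il1rn, with no overlap between both motifs. In the windows of Il1b, Il18, Il33 and Csf2 neither set of letters was present. The lines below run 5′ to 3′ on the strand of the gene, end at the base before the start, and have the match in capitals; in Cxcl1 and Cxcl2 overlapping matches on both strands make up the capitals, and in Ccl20 the match is on the opposite strand.
Cxcl1 (chr5:90891115-90891244, plus strand): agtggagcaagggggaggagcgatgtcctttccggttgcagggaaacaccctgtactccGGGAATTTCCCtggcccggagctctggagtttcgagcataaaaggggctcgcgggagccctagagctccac
Cxcl2 (chr5:90903769-90903898, plus strand): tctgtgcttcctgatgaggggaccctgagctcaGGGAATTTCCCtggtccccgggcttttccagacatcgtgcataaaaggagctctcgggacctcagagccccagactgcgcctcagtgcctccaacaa
Ccl20 (chr1:83116636-83116765, plus strand): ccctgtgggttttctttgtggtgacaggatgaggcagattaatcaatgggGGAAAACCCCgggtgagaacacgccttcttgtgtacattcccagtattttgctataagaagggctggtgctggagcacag
Il1a (chr2:129309973-129310102, minus strand): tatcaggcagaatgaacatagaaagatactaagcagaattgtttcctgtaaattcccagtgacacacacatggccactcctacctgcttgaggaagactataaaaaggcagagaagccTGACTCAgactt
Il1rn (chr2:24336710-24336859, plus strand): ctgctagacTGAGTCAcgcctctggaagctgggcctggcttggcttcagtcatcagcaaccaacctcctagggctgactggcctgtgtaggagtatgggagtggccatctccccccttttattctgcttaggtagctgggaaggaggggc
The same run of capitals stood upstream of Cxcl1, where the plus-strand match covered positions -71 to -62, and of Cxcl2, where it covered -97 to -88, counted from the base before the start as -1. The match in Ccl20 covered -80 to -71. A match describes the letters only, and no binding was measured.

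Depth was 10.08 to 28.62 M reads counted in genes per library (M, 1e6; 19.78 to 28.62 M in KO and 10.08 to 21.56 M in WT libraries). Levels are given as CPM, counts per M on library sizes scaled by TMM, a normalization that sets most genes equal between libraries. Sirt6 itself had 5.07 to 8.53 CPM in the 6 KO libraries and 4.45 to 10.5 CPM in the 9 WT libraries; these ranges overlap, and a count over the whole gene does not check a deletion of some exons. Krt14, the keratin gene of basal keratinocytes, had 28325 to 74974 CPM over the 15 libraries. Cd34 had 163 to 214 CPM in the CD34-positive libraries, against 4.51 to 40.3 CPM in the CD34-negative ones. Itga6 had 263 to 576 CPM in the 10 a6-high libraries, against 67.9, 94.1 and 174 CPM in KO replicate 1, WT replicate 2 and WT replicate 3 of the a6-low libraries. The libraries labelled a6-low KO replicate 2 and WT replicate 1 went against that label, with 445 and 471 CPM. Population comparisons that rest on them are given with and without them, while most KO against WT differences in a6-low cells are given only with them. The Y-linked gene Ddx3y had 51.9 to 74.9 CPM in the 3 KO replicate 2 libraries and at most 0.222 CPM in the other 12. In such bulk samples fewer cells of a type and less RNA per cell cannot be told apart.

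**Figure D1:**
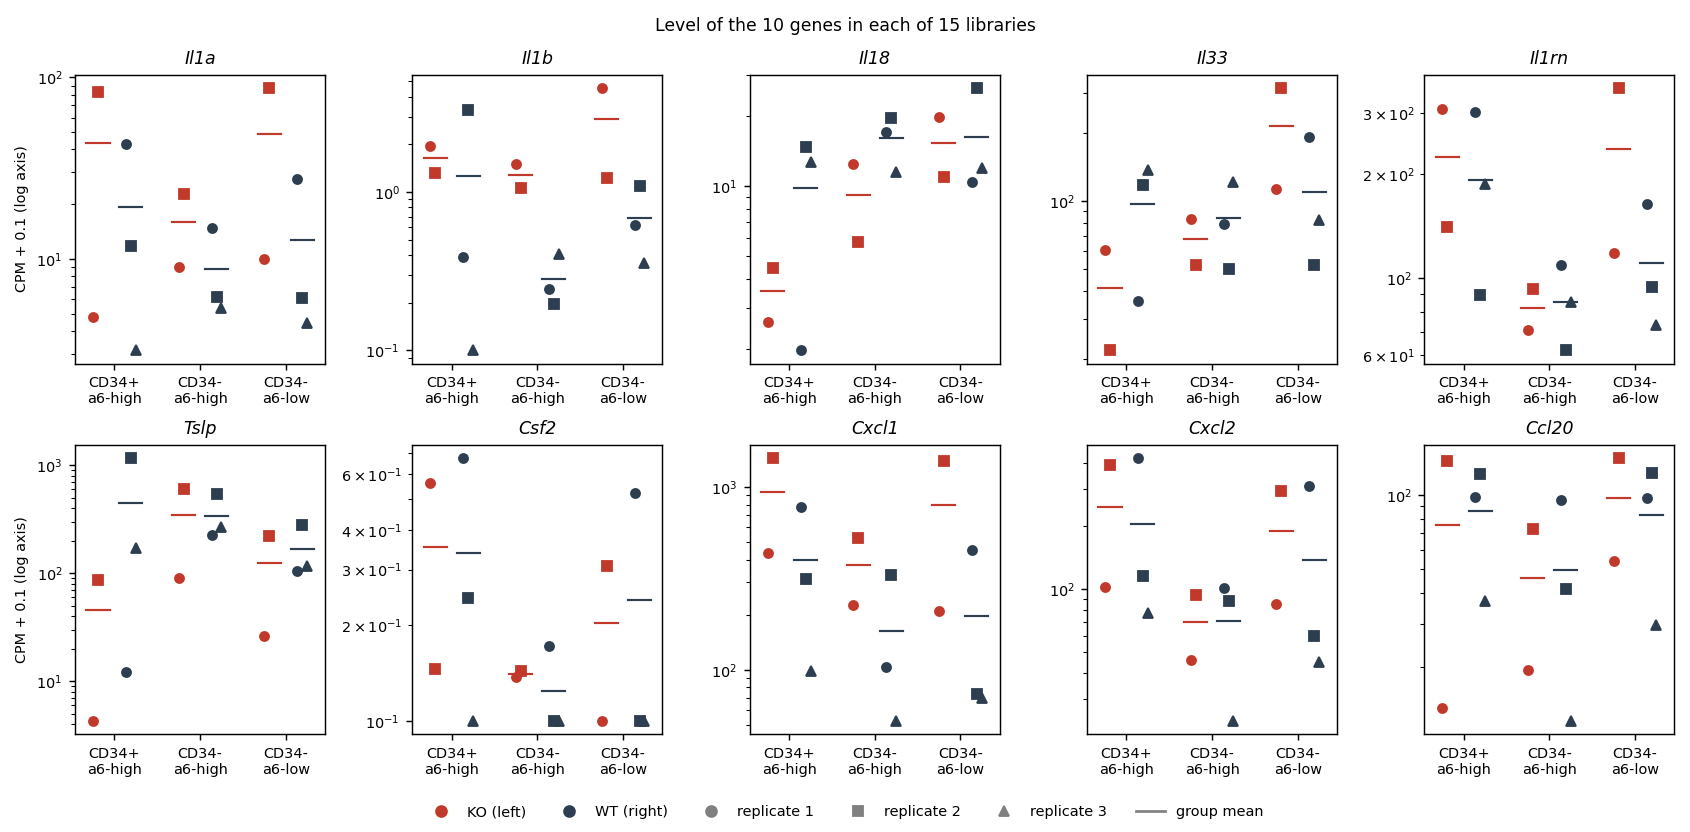
Level of each of the 10 genes in every library, as CPM + 0.1 on a log axis, with KO (red) left of WT (dark) in each of the 3 populations; symbols mark the replicate number and bars the group mean. KO and WT libraries overlap in 28 of 30 pairs of a gene and a population; the exceptions are Il1b in both CD34-negative populations. Of all 14652 genes tested, 28.1%, 30.2% and 14.9% did not overlap in CD34-positive, a6-high CD34-negative and a6-low cells.

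Per kilobase of exon the highest mean level over the 15 libraries was that of Cxcl1, with 230.1 CPM per kb, followed by Tslp with 196, Cxcl2 with 72.6, Ccl20 with 51.3, Il33 with 35.1, Il1rn with 27.1, Il18 with 11.7 and Il1a with 11.4 CPM per kb. Il1b (0.589) and Csf2 (0.168 CPM per kb) were far below the other 8. The libraries of neighbours in this order overlapped widely, since the highest library exceeded the lowest 277-fold for Tslp, 28.9-fold for Il1a, 27.4-fold for Cxcl1, 17.9-fold for Cxcl2, 14.7-fold for Il33, 14.1-fold for Il18, 11.7-fold for Ccl20 and 5.77-fold for Il1rn. The RNA of the antagonist was thus the steadiest of these 8. Exon lengths come from an annotation of another build, so the levels per kb are approximate.

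Il1a, the gene of IL-1 alpha, had 4.66 and 82.3 CPM in CD34-positive KO cells, against 42.7, 11.6 and 3.03 CPM in CD34-positive WT cells. It had 8.94 and 22.7 CPM in KO and 14.7, 6.07 and 5.29 CPM in WT cells of the a6-high CD34-negative population. In a6-low cells it had 9.89 and 87.5 CPM in KO and 27.5, 5.99 and 4.36 CPM in WT. KO replicate 2 and WT replicate 1 were the highest of their genotype in all 3 populations, and KO and WT overlapped in each.

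Il1b, the gene of IL-1 beta, rested on 0 to 123 counts per library. It had 1.85 and 1.23 CPM in KO, against 0.287, 3.2 and 0 CPM in WT CD34-positive cells. In a6-high CD34-negative cells it had 1.4 and 0.963 CPM in KO, against 0.144, 0.0955 and 0.307 CPM in WT, and in a6-low cells 4.47 and 1.12 CPM in KO, against 0.517, 0.998 and 0.256 CPM in WT. The KO libraries lay above the WT libraries without overlap in both CD34-negative populations and not in the CD34-positive one. Of all genes tested, 16.5% lay in the same order without overlap in a6-high CD34-negative cells, 8.51% in a6-low cells and 3% in both, so that many other genes share the order of Il1b. The library at 0 allows up to 0.226 CPM, the value of 3 counts there, which covers counting error only.

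Il18, whose product is processed by caspase-1 like that of Il1b, had 2.52 and 4.34 CPM in KO and 1.87, 14.7 and 12.6 CPM in WT CD34-positive cells. It had 12.4 and 5.65 CPM in KO and 17, 19.6 and 11.4 CPM in WT a6-high CD34-negative cells, and 19.8 and 10.8 CPM in KO and 10.3, 26.4 and 11.9 CPM in WT a6-low cells. The 3 lowest of all 15 libraries were CD34-positive ones.

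Il33, the gene of a nuclear cytokine that acts as an alarm signal, had 60.8 and 21.7 CPM in KO and 36.1, 118 and 137 CPM in WT CD34-positive cells. a6-high CD34-negative cells had 83.2 and 51.8 CPM in KO and 79.4, 49.9 and 122 CPM in WT. In a6-low cells the values were 113 and 318 CPM in KO and 193, 52 and 82.5 CPM in WT. Both libraries labelled a6-low with high Itga6, KO replicate 2 (318 CPM) and WT replicate 1 (193 CPM), were the highest of the series.

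Il1rn, the gene of the receptor antagonist, had 309 and 140.2 CPM in KO and 302, 89.5 and 187 CPM in WT CD34-positive cells. It had 70.5 and 93 CPM in KO and 109, 61.7 and 85.2 CPM in WT a6-high CD34-negative cells. In a6-low cells it had 118 and 356 CPM in KO and 164, 94 and 73.1 CPM in WT. The a6-high CD34-negative population held the narrowest range, 61.7 to 109 CPM, and KO and WT overlapped throughout.

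Tslp had 4.2 and 86.3 CPM in KO, against 12.1, 1165 and 173 CPM in WT CD34-positive cells. It had 90.4 and 605 CPM in KO and 225, 538 and 266 CPM in WT a6-high CD34-negative cells, and 26.1 and 222 CPM in KO and 105, 278 and 118 CPM in WT a6-low cells. Both the lowest and the highest library of the series were CD34-positive, and KO replicate 1 was the lowest in every population.

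Csf2 was close to absent, with 0 to 12 counts per library and 0 counts in 6 of 15. Its highest values were 0.462 CPM in KO replicate 1 and 0.574 CPM in WT replicate 1 of the CD34-positive cells. A library at 0 counts allows up to 0.105 to 0.298 CPM, depending on its depth, so differences among most libraries were not detectable at this depth.

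Cxcl1 had 433 and 1434 CPM in KO, against 779, 312 and 98.5 CPM in WT CD34-positive cells. It had 226 and 522 CPM in KO and 104, 329 and 52.4 CPM in WT a6-high CD34-negative cells, and 209 and 1381 CPM in KO and 449, 73.3 and 69.9 CPM in WT a6-low cells. KO replicate 2 was the highest and WT replicate 3 the lowest library in each population.

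Cxcl2 had 102 and 390.4 CPM in KO and 421, 115 and 77.2 CPM in WT CD34-positive cells. a6-high CD34-negative cells had 46.1 and 93.7 CPM in KO and 101, 87.8 and 23.5 CPM in WT, and a6-low cells had 85.1 and 293 CPM in KO and 310.1, 59.9 and 44.9 CPM in WT. KO replicate 2 and WT replicate 1 again led their genotypes in each population.

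Ccl20 had 13.5 and 137 CPM in KO and 98.1, 122 and 37.1 CPM in WT CD34-positive cells. It had 19.3 and 72.6 CPM in KO and 95.7, 41.4 and 12 CPM in WT a6-high CD34-negative cells, and 53.9 and 141 CPM in KO and 96.8, 123 and 29.6 CPM in WT a6-low cells. KO replicate 1 lay below KO replicate 2, and WT replicate 3 below the other WT libraries, in each population.

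Cxcl1, Cxcl2 and Il1a varied together over the 15 libraries. On log2(CPM + 1) values Pearson's r was 0.85 between Cxcl1 and Cxcl2, 0.83 between Il1a and Cxcl2 and 0.82 between Il1a and Cxcl1. Ccl20 followed Cxcl2 with r = 0.70 and Il1a with r = 0.69, whereas Il33 stayed between -0.15 and 0.40 with every other member and Il1b between -0.17 and 0.28. Il18 ran against Il1rn (r = -0.61) and Cxcl1 (r = -0.58) and with Tslp (r = 0.60). These are descriptions over 15 libraries that share 5 replicate labels and 3 populations.

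**Figure D2:**
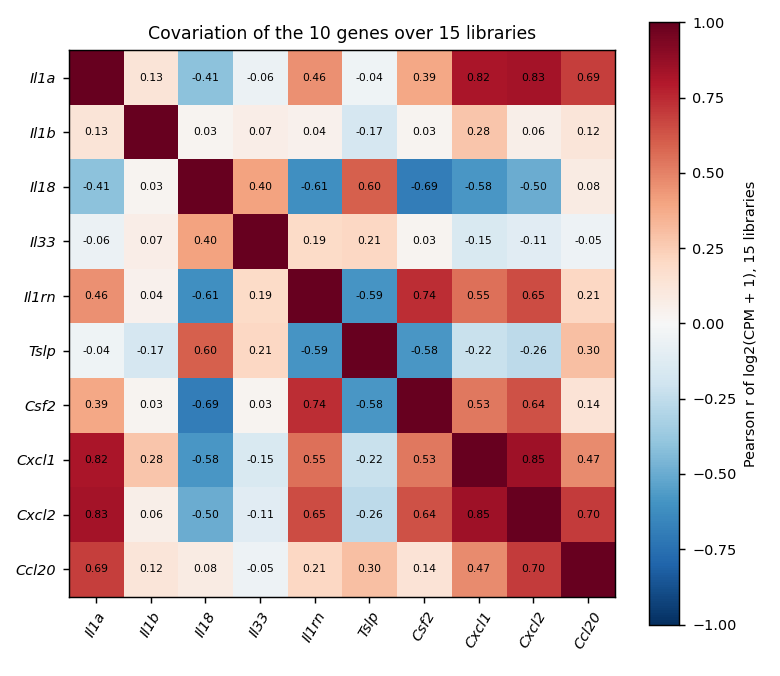
Pearson's r of log2(CPM + 1) over 15 libraries for each pair of the 10 genes (red, positive; blue, negative). Il1a, Cxcl1 and Cxcl2 form the group of highest values (0.82 to 0.85), and Il33 and Il1b show low values with most other members.

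For each member the 3 genes with the highest r over the 15 libraries were taken from all genes tested. For Cxcl1 these were Ier3 (r = 0.95), an early response gene, Inhba (0.94), which encodes an activin subunit, and Slc5a3 (0.93), and for Cxcl2 Il11 (0.92), Kcng3 (0.91) and the chemokine gene Cxcl3 (0.89). Il1a was closest to Ndrg1 (0.94), Socs1 (0.94), an inhibitor of cytokine signalling, and Cpm (0.93). Genes near Il1b included the leukocyte genes Plek (0.88) and Cd53 (0.83). The genes nearest to Il18 were the proteasome activator subunit Psme2 (0.94), Psme2b (0.92), a near-identical copy whose reads cannot be told apart with certainty, and Lpo (0.91). Those nearest to Tslp were the receptor gene Il17rb (0.95), Cyp2j6 (0.92) and Pon3 (0.88), and those nearest to Il33 were Traf2 (0.89), Tnip3 (0.82) and Hs3st1 (0.82). Those near Il1rn included Btbd10 (0.88) and the phosphatase gene Dusp4 (0.85). Ccl20 was nearest to Rps3a3 (0.85), Ptpn12 (0.85) and Rps15a-ps5 (0.84), and Csf2 to Thap12 (0.90), Nxpe3 (0.88) and Mecom (0.87), the last set resting on at most 12 counts of Csf2 per library.

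The first comparison set CD34-positive against a6-high CD34-negative cells over both genotypes, with 5 libraries each. Il1rn and Cxcl2 were higher in the CD34-positive library of all 5 replicate labels, Cxcl1, Ccl20, Il1b and Csf2 in 4 of 5, and Il18 and Tslp were lower in 4 of 5. For Csf2, KO replicate 2 had 1 count in each library and differed by library size only, and WT replicate 3 had 0 counts in both. For Il1rn the ratio within a label was 4.38 and 1.51 in KO and 2.77, 1.45 and 2.19 in WT, and for Cxcl2 it was 2.21 and 4.17 in KO and 4.16, 1.31 and 3.29 in WT. For Tslp the CD34-positive library was 21.5-fold and 7.01-fold lower in KO replicates 1 and 2 and 18.6-fold and 1.54-fold lower in WT replicates 1 and 3, whereas in WT replicate 2 it was 2.16-fold higher. No member had groups without overlap, beside 4.2% of all genes tested.

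None of the 10 members passed the threshold (adjusted p of 0.05, edgeR's quasi-likelihood test with Benjamini-Hochberg adjustment over 14652 genes), beside 171 of all genes tested (1.17%). An unadjusted p under 0.05 was found for 2 members and for 15.1% of all genes. The log2 difference was 1.32 ± 0.40 (SE) for Il1rn with an adjusted p of 0.124, 1.67 ± 0.71 for Cxcl2 (0.282), -1.06 ± 0.50 for Il18 (0.338), 2.86 ± 1.34 for Csf2 (0.341), 1.53 ± 0.87 for Il1b (0.47), 1.31 ± 0.79 for Cxcl1 (0.497), 1.30 ± 0.90 for Il1a (0.58), -1.28 ± 1.04 for Tslp (0.661), 0.75 ± 0.70 for Ccl20 (0.718) and -0.25 ± 0.49 for Il33 (0.898). The median over the members was 1.30, against -0.02 over all genes tested, with 7 members higher and 3 lower. This median was 0.39 without the CD34-positive library of KO replicate 2, 0.70 without that of WT replicate 1 and 0.63 without all 3 KO replicate 2 libraries. With the replicate label as a block, Cxcl2 was called, at a log2 difference of 1.44 ± 0.29 and an adjusted p of 0.0184, 1 member beside 793 of all genes (5.41%), while Il1rn had 1.30 ± 0.34 (adjusted p = 0.0573) and Tslp -2.09 ± 0.65 (adjusted p = 0.102). The blocked call of Cxcl2 was lost without KO replicate 1 (0.101), KO replicate 2 (0.161) or WT replicate 3 (0.103). By DESeq2 Il1rn was the member called, with an adjusted p of 0.0202, beside 846 of all genes (3.37%). Without the filter on low counts edgeR called 6 members beside 1242 of all genes (4.94%), with Il1rn, Cxcl2, Cxcl1 and Il1a higher and Il18 and Tslp lower.

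**Figure D3:**
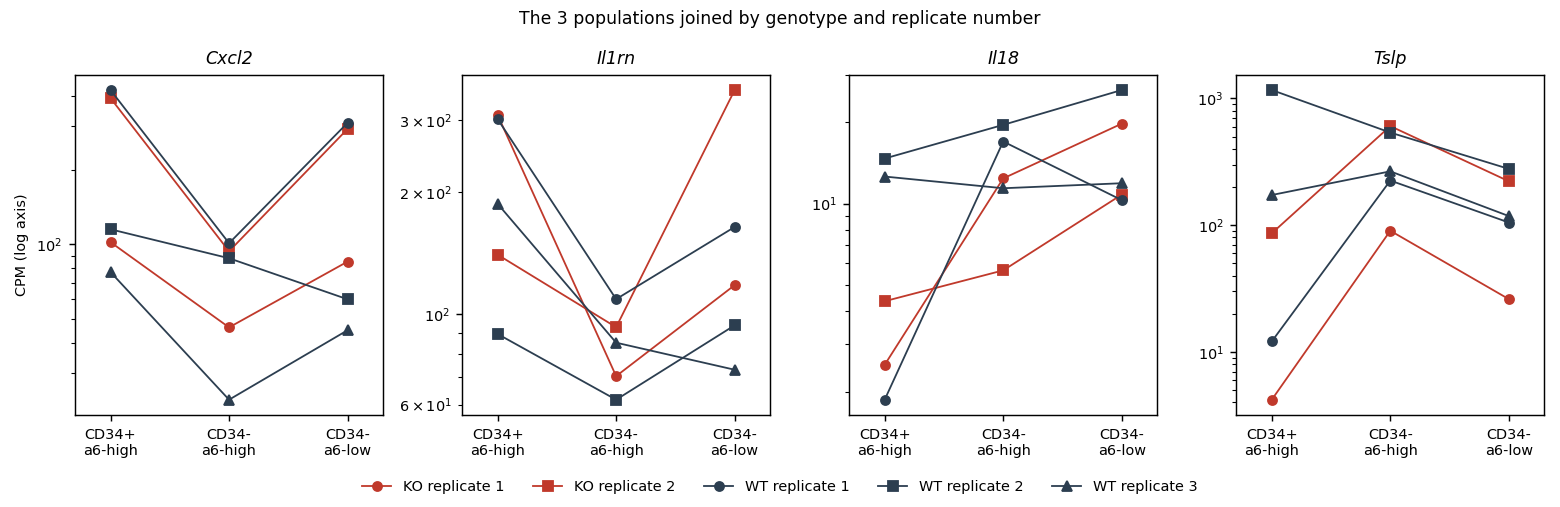
Level (CPM, log axis) of Cxcl2, Il1rn, Il18 and Tslp in the CD34-positive, a6-high CD34-negative and a6-low libraries, with lines joining libraries of the same genotype (KO red, WT dark) and replicate number. All 5 lines of Cxcl2 and Il1rn fall between the first and the second population, and all 5 lines of Tslp fall between the second and the third.

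Among the other genes of the pathway, Sigirr, which encodes an inhibitory receptor of the IL-1 family, rose by 1.51 ± 0.29 (log2; adjusted p = 0.0268, edgeR), with 4.2 to 9.18 CPM in CD34-positive libraries against 1.45 to 3.14 CPM. It was 1 of 11 tested receptors and binding proteins. Lif, a cytokine of the IL-6 family, rose by 1.82 ± 0.35 (adjusted p = 0.0281), with 10.1 to 18.6 against 1.61 to 7.84 CPM, and was 1 of 13 other keratinocyte cytokines. Neither call held without the 3 KO replicate 2 libraries (adjusted p = 0.077 for Sigirr and 0.174 for Lif), and each was lost in 6 of 10 fits that left out 1 library. Of the 4 other IL-1 family ligands, 8 processing genes, 16 signalling genes, 20 NF-kB target and feedback genes and 15 other chemokines tested, none was called in the fit without a block. With the replicate label as a block, under which 5.41% of all genes were called, Sigirr (adjusted p = 0.00323) and Lif (0.00234) were called again. The block also gave lower levels in CD34-positive cells for Casp4 (0.0378), Irak3 (0.0326), Birc3 (0.0453), the decoy receptor gene Il1r2 (0.0344), Il20 (0.044) and the chemokine genes Cxcl9 (0.000988), Cxcl10 (0.022) and Ccl7 (0.039), and higher ones for Tnfaip2 (0.00873) and Csf3 (0.0201). In the fit without a block the inflammatory caspase gene Casp4 had -2.0 ± 0.44 (adjusted p = 0.0501), the chemokine gene Cxcl9 -4.77 ± 1.12 (adjusted p = 0.0599) and the NF-kB target Lcn2 -1.66 ± 0.44 (adjusted p = 0.0873). The median log2 difference of the NF-kB list was -0.29, with 7 genes higher and 13 lower, so it did not share the sign of the members' median.

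Markers of other cell types moved between these populations as well. The summed level of 10 fibroblast markers was 0.902 to 9 CPM in CD34-positive libraries against 9.13 to 264 CPM in the a6-high CD34-negative ones, and Postn made up most of it, since the other 9 summed to 0 to 0.328 against 1.23 to 5.02 CPM. The sum was 19.3 to 82.6 against 5.56 to 14.4 CPM for 12 endothelial markers, and for 16 macrophage and dendritic cell markers it was 30.7 to 92.9 against 23.9 to 249 CPM. In the latter sum, here and below, the antigen presentation genes Cd74, H2-Ab1 and H2-Aa reached 156, 106 and 73.1 CPM. Cd68 and Cd14 reached 22.5 and 17.6 CPM, and no other marker of that list exceeded 8.11 CPM in any library. Of the tested markers 0 of 6 fibroblast, 9 of 9 endothelial and 4 of 12 macrophage and dendritic cell genes were higher in CD34-positive cells. In the fit without a block 2 fibroblast markers were called lower, 1 macrophage and dendritic cell marker higher and 0 endothelial ones, beside 1.17% of all genes. With the replicate label as a block 2 fibroblast markers were called lower and 2 endothelial ones higher, beside 5.41% of all genes. The macrophage marker Cd68 was called higher in that fit (log2 difference 1.14 ± 0.22, adjusted p = 0.018, edgeR). Their part in the members' values was not tested. Of 14 T and natural killer cell markers, Trbc2, a T cell receptor constant gene, had 29.3 to 129 CPM and was called higher in CD34-positive than in a6-low cells (adjusted p = 0.0439, edgeR), while the other 13 had at most 0.581 CPM, with Cd3e at 0 in 14 of 15 libraries. Of 15 neutrophil and mast cell markers, S100a8 had 32.1 to 973 CPM, S100a9 18.7 to 549 CPM and Cxcr2 0.0438 to 8.36 CPM. The other 12 had at most 0.981 CPM, with the neutrophil gene Ly6g at 0 in 11 libraries and the mast cell genes Cpa3 and Mcpt4 in all 15.

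The a6-high CD34-negative cells were then compared with a6-low cells, again with 5 libraries each. Ccl20 was lower in the a6-high library of all 5 replicate labels and Tslp was higher in all 5. Il1b, Il1rn, Il18, Il33, Csf2 and Cxcl2 were higher in the a6-high library of 1 label, and Il1a and Cxcl1 of 2. For Csf2, WT replicates 2 and 3 had 0 counts in both populations. Same-numbered libraries were not taken as pairs in this comparison, so these counts of labels are descriptive. How many of all genes reach such counts of labels is not given, here or in the other population comparisons. The fitted differences of 9 of the 10 members were negative and their median was -0.99, against -0.02 over all genes. None was called, beside 1 of all genes (0.00683%), and 1 member had an unadjusted p under 0.05, as had 11.1% of all genes. The log2 difference was -0.95 ± 0.40 for Il1rn (adjusted p = 0.401, edgeR), -1.03 ± 0.49 for Il33 (0.468), -1.2 ± 0.70 for Cxcl2 (0.574), -1.45 ± 0.88 for Il1b (0.595), -1.90 ± 1.40 for Csf2 (0.683), -0.91 ± 0.70 for Ccl20 (0.696), -1.09 ± 0.90 for Il1a (0.72), 1.26 ± 1.04 for Tslp (0.72), -0.69 ± 0.78 for Cxcl1 (0.815) and -0.39 ± 0.48 for Il18 (0.834). DESeq2 called none of the members either, beside 227 of all genes (0.904%), and without the filter on low counts edgeR called 3 beside 602 of all genes (2.39%), with Il1rn, Il33 and Cxcl2 lower in a6-high cells.

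The size of this pattern depended on the libraries labelled a6-low with high Itga6. When these were set aside, the a6-high libraries of the same labels stayed, so the labels were unbalanced. Those labels, KO replicate 2 and WT replicate 1, led their genotypes for Il1a and Cxcl2 in each population. The part of this imbalance in the values was not tested. Without both a6-low libraries the members' median was -0.07, with 5 higher and 5 lower (-0.38 without the 3 KO replicate 2 libraries). In the former fit the difference turned to 1.01 for Cxcl1, 0.72 for Il1a, 0.08 for Cxcl2 and 2.45 for Csf2. Il1rn had -0.25, Il33 -0.21 and Ccl20 -0.42 without them, and Tslp had 2.26, with no member called. The 20 NF-kB target and feedback genes were all lower in a6-high cells with every library in the fit (median -0.84, none called), as were the 15 other chemokines (median -0.90, none called), and without both libraries 17 of 20 (median -0.39) and 8 of 15 (median -0.05) were lower. The summed macrophage and dendritic cell markers were 23.9 to 249 CPM in a6-high and 62.5 to 363 CPM in a6-low libraries, with 11 of 12 tested markers lower in a6-high cells, and their part in these values was not tested.

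CD34-positive and a6-low cells differed in both sorting markers. Cxcl1 and Cxcl2 were higher in the CD34-positive library of all 5 labels, by 1.04-fold to 4.26-fold for Cxcl1 and by 1.2-fold to 1.91-fold for Cxcl2. Il18 was lower in 4 of 5 labels, 7.86-fold and 2.48-fold in KO replicates 1 and 2 and 5.54-fold and 1.8-fold in WT replicates 1 and 2. None of the 10 members was called by edgeR, beside 722 of all genes (4.93%). An unadjusted p under 0.05 was found for 2 members and for 21.6% of all genes. The log2 difference was -1.45 ± 0.50 for Il18 (adjusted p = 0.116) and -1.28 ± 0.49 for Il33 (adjusted p = 0.154), and the other 8 lay between -0.16 and 0.96, with adjusted p-values of 0.644 to 0.999. With the replicate label as a block none of the members was called beside 1733 of all genes (11.8%), with an adjusted p of 0.0668 for Il18, and DESeq2 called Il18 with an adjusted p of 0.0302, beside 1565 of all genes (6.23%). Without the filter on low counts edgeR called Il18 and Il33, beside 1900 of all genes (7.55%). The members' median was 0.15, and it ranged from -0.58 without the CD34-positive library of KO replicate 2 to 0.96 when KO replicate 2 was left out of the a6-low libraries. It was 1.03 without the libraries labelled a6-low with high Itga6, where Tslp and Ccl20 turned to 0.99 and 0.33.

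**Figure D4:**
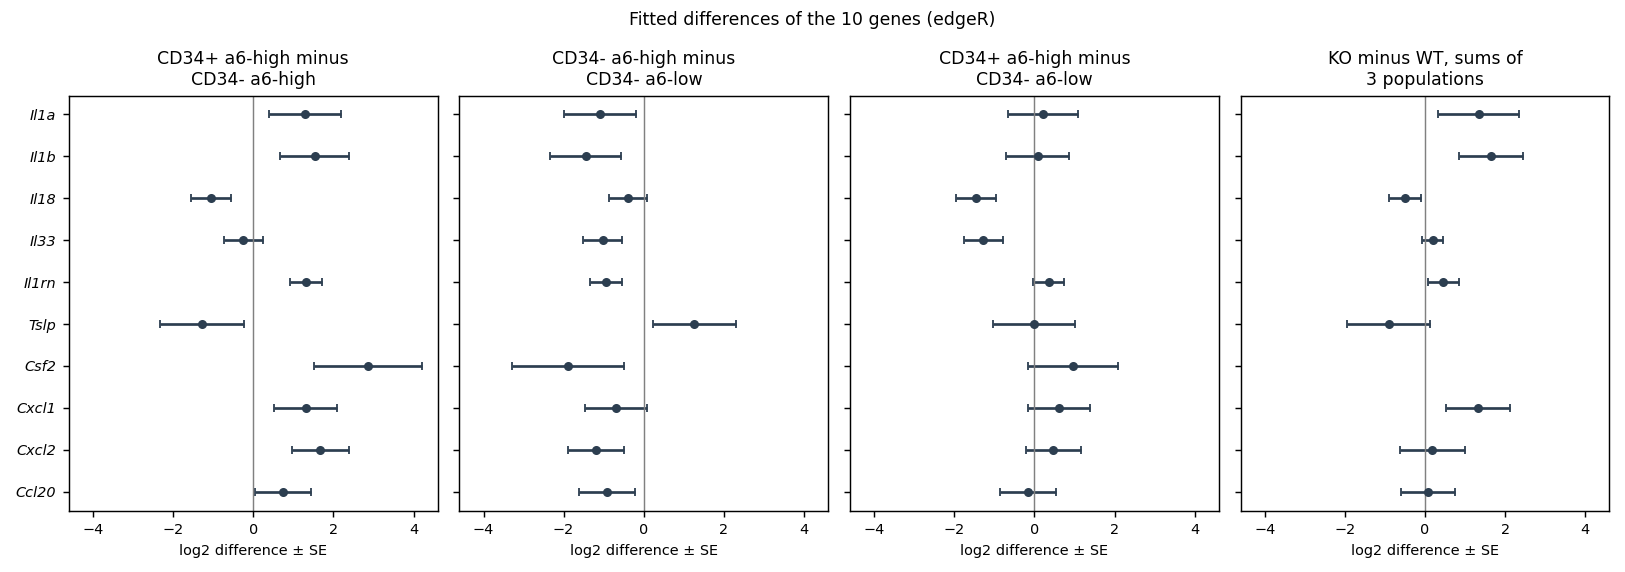
Fitted log2 differences (points) with standard errors (bars) of the 10 genes in 3 population comparisons and of KO minus WT in sums per replicate label (9 genes; Csf2 was not tested there). In the a6 panel 9 of 10 points lie below 0, and in the CD34 panel 7 of 10 lie above 0, with none past an adjusted p of 0.05.

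The IL-1 pathway and NF-kB target lists held genes that were called in this comparison. Of 20 NF-kB target and feedback genes, 4 fell and none rose, and 19 had negative differences (median -0.93). Lcn2, an iron-binding secreted protein, fell by 3.45 ± 0.47 (log2; adjusted p = 0.00732, edgeR), with 1.6 to 10.5 CPM in CD34-positive libraries against 34.5 to 79.7 CPM in a6-low ones. Birc3, an inhibitor of apoptosis, fell by 1.94 ± 0.35 (adjusted p = 0.0156), Tnip1, which restrains NF-kB signalling, by 1.49 ± 0.26 (adjusted p = 0.0142) and Bcl3, an atypical IkB protein, by 1.11 ± 0.25 (adjusted p = 0.0285). Cxcl1, Cxcl2 and Ccl20, whose promoters hold the NF-kB consensus shown above, had 0.62 ± 0.77, 0.47 ± 0.69 and -0.16 ± 0.70 in the same comparison.

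Of 16 signalling genes 3 fell and none rose. Irak3, a kinase-like inhibitor of IL-1 signalling, fell by 2.17 ± 0.40 (adjusted p = 0.0156, edgeR), Rela, an NF-kB subunit, by 1.34 ± 0.26 (adjusted p = 0.018) and the adaptor Myd88 by 0.84 ± 0.15 (adjusted p = 0.0156). Of 11 receptors and binding proteins Sigirr rose, by 1.17 ± 0.28 (adjusted p = 0.0372), and none fell. Of 8 processing genes Casp4 fell, by 2.79 ± 0.45 (adjusted p = 0.0111), with 2.44 to 4.02 CPM in CD34-positive libraries against 13.1 to 28.8 CPM in a6-low ones. None of the 4 other IL-1 family ligands was called.

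Of the 15 other chemokines 3 fell and none rose. Cxcl9, an interferon-induced ligand of Cxcr3, had 0 to 3.27 CPM in CD34-positive libraries against 6.73 to 234 CPM in a6-low ones (adjusted p = 0.0261, edgeR), and Ccl27a, a keratinocyte chemokine that draws T cells to skin, had 0.84 to 5.6 against 3.19 to 33.9 CPM (adjusted p = 0.0388). Cxcl11 had 0 to 0.366 against 0.385 to 14.4 CPM (adjusted p = 0.0401). Of 13 other cytokines 2 fell and none rose. Csf1, a macrophage growth factor, fell by 1.99 ± 0.46 (log2; adjusted p = 0.0312), and Il20, an IL-10 family cytokine, had 0 counts in all 5 CD34-positive libraries, which allows 0.0327 CPM over their summed depth, against 0.373 to 10.5 CPM in a6-low libraries (adjusted p = 0.0357). Of the 12 macrophage and dendritic cell markers tested in this comparison 10 had negative and 2 positive differences. The 2 called, Lyz2 and Tyrobp, fell (adjusted p = 0.0179 and 0.045, edgeR). The summed macrophage and dendritic cell markers were 30.7 to 92.9 CPM in CD34-positive libraries against 62.5 to 363 CPM in a6-low ones. Their part in these calls was not tested.

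Each of the calls of IL-1 pathway, NF-kB target, chemokine and cytokine genes in this comparison was lost without the CD34-positive library of KO replicate 1. Of the 10 fits that left out 1 library, Cxcl11 was lost in 9, Sigirr in 8, Ccl27a and Il20 in 7, Csf1 in 6 and Bcl3 in 5. Cxcl9 was lost in 4, Irak3 and Rela in 2, and Casp4, Myd88, Tnip1, Lcn2 and Birc3 in 1. Without the 3 KO replicate 2 libraries Lcn2 (adjusted p = 0.045), Myd88 (0.0476), Cxcl9 (0.0116) and Csf1 (0.0456) were still called, while Sigirr, Casp4, Irak3, Rela, Birc3, Tnip1, Bcl3, Ccl27a, Cxcl11 and Il20 were not. Without the libraries labelled a6-low with high Itga6 the calls of Sigirr (0.115), Bcl3 (0.0772) and Csf1 (0.11) were lost; in that fit 4 NF-kB genes fell and 1 rose, 3 signalling genes fell, 2 processing genes fell, 3 other chemokines fell and 2 rose, and 2 other cytokines fell and 1 rose. With the replicate label as a block all calls named above held, beside 11.8% of all genes called in either direction. In that fit 8 of 20 NF-kB genes, 4 of 16 signalling genes, 6 of 15 other chemokines and 3 of 13 other cytokines fell. Nfkbia (adjusted p = 0.0205, edgeR), Icam1 (0.0126) and Cxcl10 (0.00894) were among them. The receptor gene Il1rl2 (0.0267) fell as well, whereas Csf3 (0.041), Casp1 (0.0499) and Sigirr (0.00614) rose.

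KO and WT cells were compared within each population, with 2 KO and 3 WT libraries. None of the 10 members was called by edgeR or by DESeq2 in any of the 3 populations, beside 1 of 14652 genes (0.00683%) in each by edgeR and 0.107%, 0.131% and 0.0239% of genes by DESeq2 in CD34-positive, a6-high CD34-negative and a6-low cells. None had an unadjusted p under 0.05 by edgeR, beside 7.59%, 9.59% and 4.69% of all genes in the same order of populations. Il1b had the largest differences of the members in both CD34-negative populations, 2.72 ± 1.28 on the log2 scale in a6-high CD34-negative cells (adjusted p = 0.523, edgeR), 2.29 ± 1.16 in a6-low cells (adjusted p = 0.865), and had 0.42 ± 1.13 in CD34-positive cells (adjusted p = 0.923). In the CD34-negative populations the summed macrophage and dendritic cell markers were 74.8 and 249 CPM in KO against 23.9 to 120.0 CPM in WT a6-high cells, and 310.4 and 363 CPM in KO against 62.5 to 181 CPM in WT a6-low cells. The 7 melanocyte markers summed to 3.24 and 5.61 CPM in KO against 1.01 to 1.92 CPM in WT a6-high CD34-negative cells. In a6-low cells they summed to 3.77 and 141 CPM in KO against 1.32 to 2.77 CPM in WT. Of 9 tested endothelial markers 2 were higher in KO in a6-high CD34-negative cells and 1 in a6-low cells. The part of these marker genes in the Il1b values was not tested.

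In CD34-positive cells the log2 difference of KO from WT was -3.31 ± 1.67 for Tslp (adjusted p = 0.653), -1.50 ± 0.73 for Il18 (0.652), -1.23 ± 0.71 for Il33 (0.661), 1.23 ± 1.08 for Cxcl1 (0.74) and 1.18 ± 1.23 for Il1a (0.788), and the other members lay between -0.19 and 0.42. In a6-high CD34-negative cells Cxcl1 had 1.21 ± 1.08 (adjusted p = 0.698), Il1a 0.87 ± 1.24 (0.819), Il18 -0.83 ± 0.70 (0.682) and Csf2 0.75 ± 2.28 (0.925), with the other 5 between -0.31 and 0.02. In a6-low cells Cxcl1 had 2.01 ± 1.08, Il1a 1.93 ± 1.24, Il1rn 1.1 ± 0.55 and Il33 0.98 ± 0.67, each with an adjusted p of 0.865, and the other 5 lay between -0.69 and 0.45. Without the filter on low counts edgeR called Tslp in CD34-positive cells (-3.29 ± 0.63, adjusted p = 0.000506), beside 195 of all genes (0.775%). It also called Cxcl1 in a6-low cells (2.01 ± 0.44, adjusted p = 0.0046), beside 156 (0.62%). KO and WT libraries overlapped for both genes there. With the filter, leaving out 1 library in turn gave -6.73 to -1.03 for Tslp and 0.08 to 3.47 for Cxcl1 in the same populations. Without the KO replicate 2 libraries the difference of Il1a turned to -2.04 in CD34-positive and -0.37 in a6-low cells. The members' median in a6-low cells was 0.72, and 0.60 without the libraries labelled a6-low with high Itga6.

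Counts were also summed over the 3 populations of each replicate label, giving 2 KO and 3 WT sums. Of 9 members tested (Csf2 did not pass the filter) none was called, beside 1 of 15597 genes (0.00641%), and none had an unadjusted p under 0.05, beside 10.6% of all genes. The log2 difference of KO from WT was 1.64 ± 0.80 for Il1b (adjusted p = 0.493, edgeR), 1.34 ± 1.01 for Il1a (0.618), 1.32 ± 0.80 for Cxcl1 (0.552), 0.46 ± 0.38 for Il1rn (0.653), 0.19 ± 0.27 for Il33 (0.803), 0.18 ± 0.81 for Cxcl2 (0.946), 0.07 ± 0.68 for Ccl20 (0.98), -0.51 ± 0.40 for Il18 (0.635) and -0.91 ± 1.03 for Tslp (0.738). KO replicate 2 carried much of the Il1a difference, which was -0.82 without that label. The difference of Cxcl1 ranged from 0.04 to 2.01 when 1 label was left out in turn.

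No gene of the other pathway lists was called between KO and WT in the sums. The smallest p-values belonged to Aim2, a DNA sensor of the inflammasome, with 1.60 ± 0.27 (adjusted p = 0.461, edgeR), Il19 with 1.2 ± 0.23, Cxcl10 with 1.99 ± 0.46, Lcn2 with 1.05 ± 0.24 and the receptor gene Il1r1 with 0.83 ± 0.22, all at the same adjusted p. Of the 20 NF-kB target and feedback genes 16 had positive differences in the sums (median 0.40, against 0.03 over all genes) and 17 had them in a6-low cells (median 0.74, against 0.04). In a6-high CD34-negative cells 14 had positive differences (median 0.25, against 0.05), and in CD34-positive cells 6 had positive and 14 negative ones (median -0.22, against 0.01). Of the 14 macrophage and dendritic cell markers tested in the sums 13 had positive differences (median 1.62), and their part in these values was not tested. Whether the genotype difference itself differed between populations was tested with interaction terms, which called none of the members, for CD34 or for a6, beside 0 of 14652 genes (0%) in each.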

How the data were processed

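Per the labels' protocols, sorted cells were lysed directly and cDNA was made with a SMART-Seq v4 kit. The deposited files hold whole-number read counts per Ensembl gene, not normalized. HTSeq 0.6.0, STAR 2.3.0, Picard 1.100 and the build mm9 are named in the submitters' processing notes, with no role given for each; which annotation was used is not stated in these sources. Library sizes and tests leave out the 5 rows without a gene, which held 35.96% to 44.28% of records, mostly multi-mapped reads, so near-identical genes are uncertain; the kit marks no strand.

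The main test was that of edgeR 4.0.16 run in R 4.3.3 (quasi-likelihood, TMM, filterByExpr, 1 coefficient per group, all 15 libraries, adjusted p of 0.05 over all genes). Standard errors were derived from the F statistic. KO and WT were also compared in counts summed per replicate label. The test was tried on simulated counts. Alternatives were DESeq2 1.42.0, its size factors, other filters (none, or at least 10 CPM in 2 libraries), the compared groups only, a replicate block and leaving out libraries. All 10 members are named in every comparison; of each other list up to 4 called genes, else the 2 of smallest p, were eligible, and not all are printed. Of the genes most like each member in pattern, some are not reported here. Members, lists and tests were chosen with earlier results of these data known. Ddx3y, the marker genes given singly and the pathway genes named under the replicate block were picked with their values in view.

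No replicates agreed within sampling noise (chi-square 35.3 to 274 per degree of freedom). The labels do not tie them to separate animals. The Y-linked gene Ddx3y was present in the KO replicate 2 libraries and almost absent from those of KO replicate 1. By this 1 gene the KO replicates differed in sex, or in their mix of sexes if animals were pooled. Sex and replicate thus cannot be told apart in KO. The WT libraries had at most 0.222 CPM of Ddx3y, so its RNA was not balanced between KO and WT either. Spread between WT replicates, which also enters the p-values, may be technical. Same-numbered libraries of a genotype were taken as pairs where their deviations from the group means correlated above 0.1 in every pair. That held for CD34 (0.104 to 0.53) and CD34-positive against a6-low (0.273 to 0.589), not for a6 (-0.012 to 0.466) or KO against WT (-0.501 to 0.105). This pairing comes from the data, and with 2 KO libraries both KO pairs give the same value.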

Additional observations from a re-analysis of the deposited data

How the results depend on the processing

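None of the 10 genes was called by edgeR in any comparison when 1 library or replicate label was left out of the fit without a block. Calls came with DESeq2, the replicate block or no filter on low counts, and the cause was not tested. The range of members' differences over left-out libraries often crossed 0, so with 2 or 3 libraries per group these directions are uncertain, and for Il1b and Csf2 low counts limit them as well. Where leaving out a library left 1 KO library, that library was assumed to vary like the others. With levels scaled to total counts Il1b again lay higher in KO than WT without overlap in both CD34-negative populations, beside 4.13% of all genes.

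With the replicate block 793 genes were called for CD34, 1 of them a member, 60 for a6, 1733 for CD34-positive against a6-low, 2 for KO against WT in each population and 0 in the sums. Under the block the log2 difference changed sign for Il1b in CD34-positive against a6-low cells (-0.17). For KO against WT the block was the replicate number alone, shared by both genotypes, although such pairs did not correlate above 0.1 throughout (-0.501 to 0.105). There the sign changed for Cxcl2 in CD34-positive cells (-0.23), Tslp in a6-high CD34-negative cells (-0.80), Ccl20 (-0.39) and Il18 (0.02) in a6-low cells and Ccl20 (-0.62) and Cxcl2 (-0.23) in the sums. Leaving out 1 replicate label in turn with the block was an alternative added after the data were seen. For CD34 it called Cxcl2 (adjusted p = 0.0362, edgeR) and Tslp (0.0393) without WT replicate 1, beside 551 of 14370 genes. Without WT replicate 2 it called Cxcl2 (0.00401) and Tslp (0.046), beside 622 of 14441 genes. Il1rn was called without KO replicate 2, at a log2 difference of 1.60, where 1 KO library per population was left. Il18 was called for CD34-positive against a6-low without WT replicate 1 (0.0486), beside 1473 of 14370 genes. The block changed no other member's call.

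DESeq2 called 846 genes for CD34 (1 member), 227 for a6, 1565 for CD34-positive against a6-low (1 member), 27 for KO against WT in CD34-positive cells, 33 in a6-high CD34-negative cells and 6 in a6-low cells, 143 in the sums and 1 for the interaction with CD34. No filter on low counts gave 1242 (6 members), 602 (3 members), 1900 (2 members), 195 (1 member), 256 and 156 (1 member) in the same order, with 6 in the sums, 20 for the interaction with CD34 and 13 for that with a6. The compared groups alone gave 311 for CD34, 0 for a6, 422 for CD34-positive against a6-low, and 2 and 0 for KO against WT in CD34-positive and a6-low cells. At least 10 CPM in 2 libraries gave 3 for a6. Near-zero differences changed sign for Csf2 in KO against WT in CD34-positive cells with DESeq2 (0.07) and with no filter (0.02), for Tslp with DESeq2 size factors (-0.00) and for Cxcl2 with no filter (0.01) and the filter at 10 CPM (0.00) in a6-high CD34-negative cells.

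Without the libraries labelled a6-low with high Itga6, 342 genes were called for a6. The difference changed sign in the a6 comparison for Csf2 (2.45), Il1a (0.72), Cxcl1 (1.01) and Cxcl2 (0.08), in CD34-positive against a6-low cells for Tslp (0.99), Ccl20 (0.33) and Il1b (-0.29), and in KO against WT in a6-low cells for Csf2 (0.00), Ccl20 (-0.49) and Il18 (0.06). Without the 3 KO replicate 2 libraries 32 genes were called for CD34, 0 for a6, 116 for CD34-positive against a6-low and 4 for KO against WT in a6-high CD34-negative cells and 6 in a6-low cells. The difference changed sign for Csf2 in the a6 comparison (0.06) and for Il1b (-0.13) and Il1a (-0.24) in CD34-positive against a6-low cells. For KO against WT it did so for Csf2 (0.83), Il1a (-2.04) and Cxcl2 (-1.0) in CD34-positive cells, Tslp (-1.92) in a6-high CD34-negative cells and Ccl20 (-0.62), Il1a (-0.37), Il18 (0.30) and Cxcl2 (-0.70) in a6-low cells.

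Leaving out 1 library in turn gave 7 (KO replicate 1, a6-high CD34-negative) to 258 genes for CD34, 1 to 50 (KO replicate 2, a6-low) for a6, 41 (KO replicate 1, CD34-positive) to 691 for CD34-positive against a6-low, 1 to 2 for KO against WT in CD34-positive and in a6-high CD34-negative cells, and 0 to 10 in the sums. The log2 differences that crossed 0 ranged in the CD34 comparison from -0.71 to 0.03 for Il33, -0.48 to 1.37 for Ccl20 and -0.30 to 1.76 for Il1a. In the a6 comparison they ranged from -2.97 to 0.46 for Csf2, -1.52 to 0.06 for Il1a and -1.21 to 0.28 for Cxcl1. In CD34-positive against a6-low cells they ranged, with the blocked fits included, from -0.21 to 3.31 for Csf2, -1.72 to 1.11 for Tslp, -1.40 to 0.27 for Ccl20, -0.32 to 1.06 for Il1rn, -1.31 to 0.73 for Il1b, -1.39 to 1.36 for Il1a and -0.16 to 1.17 for Cxcl2. For KO against WT in CD34-positive cells the ranges were -2.33 to 0.84 for Csf2, -2.66 to 0.67 for Ccl20, -0.46 to 0.70 for Il1rn, -0.15 to 3.19 for Il1b, -2.04 to 2.56 for Il1a and -1.0 to 1.36 for Cxcl2. In a6-high CD34-negative cells they were -1.92 to 0.82 for Tslp, -0.69 to 0.06 for Il33, -1.36 to 0.78 for Ccl20, -0.27 to 0.15 for Il1rn and -0.61 to 0.41 for Cxcl2. In a6-low cells they were -4.69 to 4.03 for Csf2, -2.67 to 0.42 for Tslp, -0.62 to 0.78 for Ccl20, -0.37 to 3.24 for Il1a, -0.57 to 0.46 for Il18 and -0.70 to 1.85 for Cxcl2. In the sums they were -2.96 to 0.27 for Tslp, -0.15 to 0.46 for Il33, -1.21 to 0.73 for Ccl20, -0.82 to 2.56 for Il1a and -0.92 to 1.26 for Cxcl2.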
